A study of Homo sapiens with 6 samples.

Results

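Klotho and the receptors and ligands of the fibroblast growth factor (FGF) family were followed in RCC4 cells with and without the transcription factor ATF4. The members were the klotho genes KL and KLB, the receptor tyrosine kinases FGFR1, FGFR2, FGFR3 and FGFR4, the receptor-like FGFRL1, and the ligands FGF1 and FGF2, which made 9 of the 60683 genes in the count table. They were chosen by name with the comparison of parental and knockout cells already known, and KL was chosen because it was higher in the knockout. The differences between the groups are therefore given for the members as descriptions. No p-value is given for a member, and the number of members past the threshold stands once beside that of all genes with nothing drawn from it.

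RCC4 is an established human cell line from a clear cell renal carcinoma that lacks a working VHL gene, and this background is shared by both groups. Each library gave the number of reads per gene of 1 bulk RNA sample. There were 3 libraries of parental RCC4 cells and 3 of RCC4 cells labelled ATF4 KO, and no drug or time course was named for either group. How ATF4 was disrupted, whether the knockout is a clone or pooled cells, and whether replicates are separate cultures is left unsaid by the labels, so that all errors and p-values reflect the variation among these 6 libraries and could be technical.

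FGF receptors are tyrosine kinases of the cell surface that bind FGFs together with heparan sulphate. Most FGFs act near the cell that releases them, whereas the endocrine FGFs bind heparan sulphate weakly and need a klotho protein as co-receptor. In the kidney, klotho and an FGF receptor together bind FGF23, a bone hormone that lowers phosphate reabsorption and vitamin D activation, and the distal tubule is the segment known for the highest klotho. Klotho is low in many renal carcinomas.

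The libraries held between 41002611 and 46755358 reads assigned to genes, so that 3 counts, the floor used here, stood for a CPM of 0.0634 to 0.0729. CPM are counts scaled to a common library size, here with the trimmed mean of M values (TMM), and levels of different genes are compared only as CPM per kilobase of exon. ATF4 itself, on chr22:39519695-39522685, was read 10413, 11037 and 10219 times in the parental libraries and 8628, 10386 and 9895 times in the knockout libraries. It averaged 244 ± 5.97 CPM with ATF4 intact and 214 ± 8.04 CPM in the knockout (SD over 3 libraries; log2 fold change -0.19, SE 0.0294, edgeR quasi-likelihood adjusted p = 3.19e-07). The 100 nearest tested genes had a median log2 fold change of -0.25, so that ATF4 was not low beside its neighbours. The transcript was thus retained, and its count does not check the labels. The 8 markers of renal epithelium and clear cell carcinoma, PAX8 and CA9 among them, were all present, with a summed level of 6290 to 6680 CPM in the parental libraries and 7150 to 7330 CPM in the knockout libraries. Vimentin (VIM) made up most of this sum, at 4810 and 5170 CPM, and the markers went both ways, with CA9 higher (log2 fold change 2.55) and PAX8 (-0.15) and KRT18 (-0.09) lower. The summed leukocyte markers reached at most 0.211 CPM and the endothelial markers at most 0.182 CPM. The fibroblast markers summed to 58.5 to 72.7 CPM in parental and 51.1 to 51.7 CPM in knockout libraries, with COL1A1 (-0.31) and PDGFRB (-1.06) lower and DCN at 0 or 1 count in every library, and their part in the differences of the members was not tested.

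KL (ENSG00000133116), the gene of alpha-klotho, spans chr13:33016433-33066145 on the plus strand of GRCh38. The bases before its start and those before the start of KLB are shown because one gene was read in every library and the other in almost none, and every CpG dinucleotide is in capitals. Both come from RefSeq on GRCh38.p14, plus strand, KL from chr13:33016173-33016422 and KLB from chr4:39406680-39406852, and neither includes transcribed bases.
KL: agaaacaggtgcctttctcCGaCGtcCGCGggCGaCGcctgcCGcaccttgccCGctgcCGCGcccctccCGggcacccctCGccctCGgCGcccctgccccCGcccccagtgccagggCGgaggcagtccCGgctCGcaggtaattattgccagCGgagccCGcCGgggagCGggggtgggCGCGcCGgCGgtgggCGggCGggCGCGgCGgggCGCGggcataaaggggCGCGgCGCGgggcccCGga
KLB: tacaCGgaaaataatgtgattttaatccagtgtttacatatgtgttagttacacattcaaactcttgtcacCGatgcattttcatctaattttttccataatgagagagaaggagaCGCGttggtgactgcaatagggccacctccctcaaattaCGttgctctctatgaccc
The 250 bases shown for KL were 80% G or C and held 38 CpGs, whereas the 173 bases shown for KLB were 39.3% G or C and held 5. Over the full 300-base RefSeq window around each start, KL had 48 CpGs, more than 98% of the 35114 windows of all genes. KLB had 6, more than 33.7% of them, against a median of 14. Any link between CpG content and the level of either gene was not tested.

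KL gave 353, 366 and 354 counts in the parental libraries and 977, 1021 and 1109 counts in the knockout libraries. The parental libraries were at 8.12, 8.32 and 8.4 CPM, the knockout libraries at 23.8, 22 and 23.4 CPM. All 3 knockout libraries lay far above all 3 parental libraries, and the groups did not overlap. Mean KL was 8.28 ± 0.147 CPM with ATF4 intact and 23.1 ± 0.958 CPM in the knockout (SD over 3 libraries), 2.78-fold or 1.48 on the log2 scale (SE 0.0725). Taking any 1 knockout library over any 1 parental library, the ratio of KL levels ran from 2.61 to 2.93.

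Of the 15321 genes with enough reads to be tested, KL was number 92 in the order of log2 fold change, with 0.594% of them above it. It had the highest log2 fold change among its 100 nearest tested genes on chromosome 13, whose median was 0.06, and its 10 nearest neighbours ran from -0.51 to 0.90. Of 6 markers listed for the distal nephron, 5 stayed under 10 counts in every library, namely CALB1, TRPV5 and PVALB of the distal tubule, UMOD of the thick ascending limb and AQP2 of the collecting duct. The remaining one, SLC12A3, the thiazide-sensitive sodium chloride cotransporter, carried their summed level of 10.8 to 12.9 CPM in parental and 3.91 to 4.76 CPM in knockout libraries. The summed proximal tubule markers were also lower in the knockout, at 10.8 to 11.5 CPM against 15.6 to 17.3 CPM in parental libraries. GGT1 made up most of this sum, at 13 and 8.58 CPM (log2 fold change -0.6), and its 100 nearest tested genes had a median of -0.29. SLC34A1 (-0.61) was lower, SLC5A2 (-0.61) and CUBN (0.16) did not pass, and LRP2 was at 0 or 1 count in every library. Fewer cells of a type and less RNA per cell cannot be told apart in these bulk samples, and the part of the marker shifts in the KL difference was not tested.

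KLB (ENSG00000134962), the gene of beta-klotho, which serves FGF19 and FGF21, lies on chr4:39406853-39451536. It was read once in each of 2 parental libraries, not at all in the third, and not at all in the 3 knockout libraries. Both groups were below the floor of 3 counts, so no fold change was computed and KLB was the 1 member of 9 that was not tested.

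**Figure D1:**
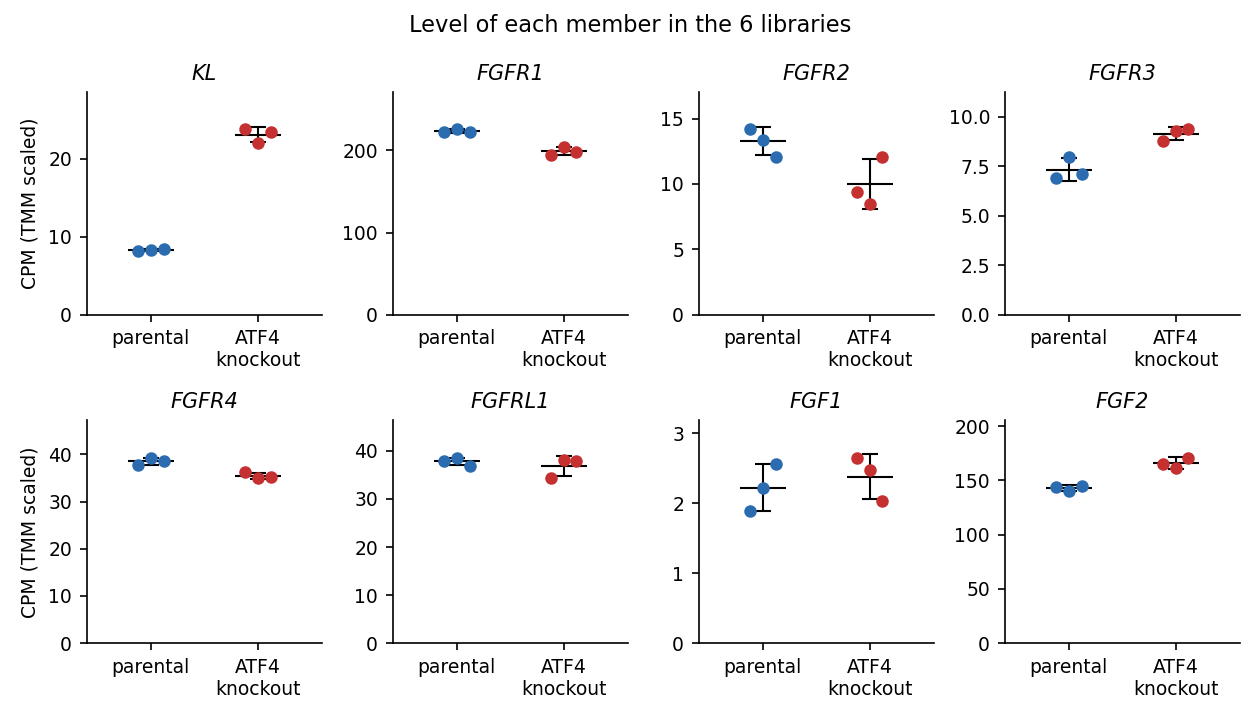
Level of each of the 8 members above the filter in CPM (vertical axis from 0, its own scale for each gene), with 1 point per library, parental in blue and ATF4 knockout in red, and the mean and SD of 3 libraries in black. KL is the gene whose groups lie furthest apart relative to their level (8.28 and 23.1 CPM), and FGFR2, FGFRL1 and FGF1 are those whose groups overlap.

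Among the receptors, FGFR1 (ENSG00000077782; chr8:38400215-38468834, minus strand), the kinase that pairs with alpha-klotho in FGF23 signalling, gave 9638, 9938 and 9403 counts with ATF4 intact, against 7976, 9472 and 9383 in knockout libraries. Its levels were 222, 226 and 223 CPM against 194, 204 and 198 CPM. Each knockout library lay below each parental library, with means of 224 ± 2.21 and 199 ± 4.93 CPM and a log2 fold change of -0.17 (SE 0.0284). An exon of LETM2 on the opposite strand overlaps FGFR1 by 138 bases, and LETM2 had 536 to 641 counts in the 6 libraries.

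FGFR2 (ENSG00000066468; chr10:121478334-121598458, minus strand), whose splice forms separate epithelial from mesenchymal ligand binding, gave 618, 591 and 511 counts in parental and 386, 394 and 574 counts in knockout libraries. This was 14.2, 13.4 and 12.1 CPM against 9.38, 8.48 and 12.1 CPM. Knockout replicates 1 and 2 were below every parental library, but knockout replicate 3 reached the level of parental replicate 3, so the groups overlapped. The means were 13.3 ± 1.05 and 10 ± 1.91 CPM, with a log2 fold change of -0.41 (SE 0.102) that ran from -0.57 to -0.30 when single libraries were left out.

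FGFR3 (ENSG00000068078; chr4:1793293-1808872), the receptor known for restraining bone growth, was read 299, 351 and 300 times in parental and 360, 432 and 443 times in knockout libraries. Its levels of 6.88, 7.98 and 7.12 CPM in parental cells were all below those of 8.75, 9.29 and 9.37 CPM in knockout cells. The means were 7.33 ± 0.581 and 9.14 ± 0.335 CPM, a log2 fold change of 0.32 (SE 0.0948).

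FGFR4 (ENSG00000160867; chr5:177086886-177098144), the hepatic receptor for FGF19, was read 1643, 1728 and 1624 times in parental and 1491, 1623 and 1664 times in knockout libraries. It stood at 37.8, 39.3 and 38.6 CPM in parental and at 36.3, 34.9 and 35.2 CPM in knockout cells. The groups did not overlap, but the gap between the nearest libraries was small beside the level, and the log2 fold change was -0.12 (SE 0.0483).

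FGFRL1 (ENSG00000127418; chr4:1009936-1026897), which binds FGFs but has no kinase domain, gave 1642, 1696 and 1556 counts in parental libraries against 1415, 1775 and 1786 in knockout libraries. These stood for 37.8, 38.6 and 36.9 CPM against 34.4, 38.2 and 37.8 CPM. Its groups overlapped, with means of 37.8 ± 0.817 and 36.8 ± 2.07 CPM and a log2 fold change of -0.04 (SE 0.0496).

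Of the ligands, FGF2 (ENSG00000138685; chr4:122826708-122898236), basic FGF, which leaves cells without a signal peptide, had 6255, 6173 and 6113 counts in parental and 6787, 7473 and 8084 counts in knockout libraries. Its levels were 144, 140 and 145 CPM against 165, 161 and 171 CPM. Every knockout library was above every parental library, and the means of 143 ± 2.45 and 166 ± 5.11 CPM gave a log2 fold change of 0.21 (SE 0.0302). The 100 nearest tested genes had a median of 0.09, and with the regional median taken out the log2 fold change of FGF2 was 0.12. Exons of NUDT6, the antisense gene of FGF2, cover 804 bases of it, and NUDT6 had 110 to 181 counts.

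FGF1 (ENSG00000113578; chr5:142592178-142698070, minus strand), acidic FGF, a ligand of all the FGF receptor kinases, was read 82, 97 and 108 times in parental and 109, 115 and 96 times in knockout libraries. This came to 1.89, 2.21 and 2.56 CPM against 2.65, 2.47 and 2.03 CPM. The groups overlapped, and the log2 fold change of 0.10 was smaller than its SE of 0.171.

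As a description, 6 of the 8 members in the fit across all genes were past its adjusted p threshold of 0.05, where 42% of the 15321 genes were. These were 3 higher in the knockout, KL, FGFR3 and FGF2, beside 21.2% of all genes, and 3 lower, FGFR1, FGFR2 and FGFR4, beside 20.8% of all genes. The libraries of the groups did not overlap for 5 members, KL, FGFR3, FGF2, FGFR1 and FGFR4, beside 49.6% of all genes. FGFR4 was no longer among the 6 when parental replicate 2 or 3 or knockout replicate 2 or 3 was left out. Since the members were chosen with this comparison known, nothing is read from these counts. The median log2 fold change was 0.03 over the 8 members and 0.01 over all genes tested.

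**Figure D2:**
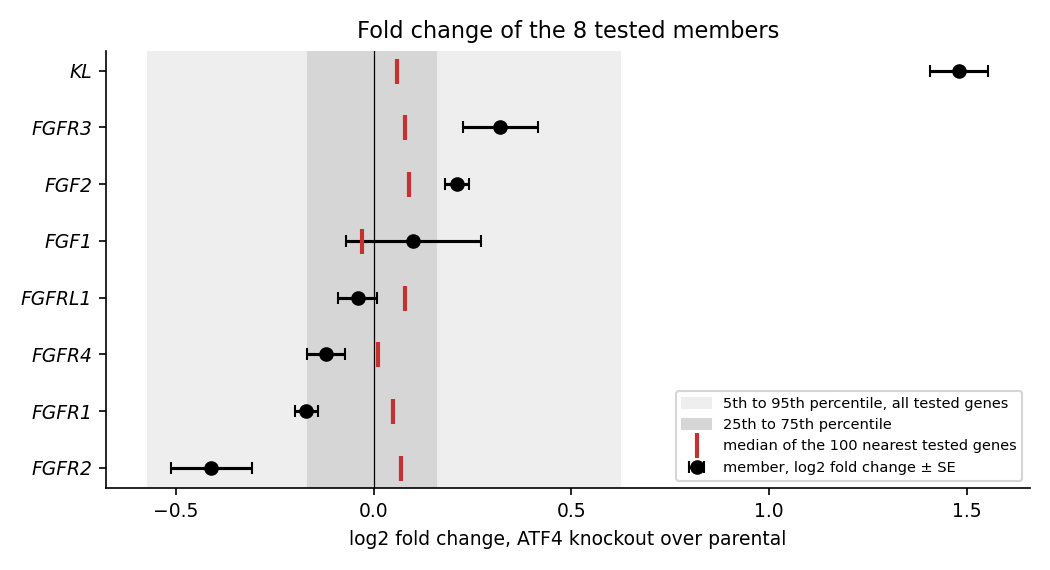
Log2 fold change of the 8 tested members, knockout over parental (horizontal axis; black points with SE), with the median of the 100 nearest tested genes as a red tick and the spread of all 15321 tested genes as grey bands. KL at 1.48 lies beyond the 95th percentile of all genes (0.62), while the other 7 members lie within the 5th to 95th percentile band (-0.57 to 0.62).

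Per kilobase of exon, the order in parental cells was FGF2 (21.1 CPM per kilobase), FGFR1 (16.2), FGFRL1 (9.11), FGFR4 (7.98), FGFR2 (1.75), KL (1.64), FGFR3 (1.51), FGF1 (0.421) and KLB. The libraries of FGFR2 and KL overlapped, as did those of KL and FGFR3, so these 3 had no order in parental cells by this length. In knockout cells KL stood by itself, at 4.56 CPM per kilobase, above FGFR3 at 1.88 and FGFR2 at 1.32, and no neighbouring members overlapped. The order depends on the length used. The longest single transcript of each gene was also used in place of all its exons. By it FGFR1 was above FGF2 in both groups (36 against 21.1 CPM per kilobase in parental cells), and FGFR4 was above FGFRL1. In knockout cells the mean of FGFR2 was then above that of FGFR3 (2.29 against 2.06), but their libraries overlapped (1.94 to 2.78 and 1.97 to 2.11). In parental cells FGFR2, at 3.04 CPM per kilobase, was clear of KL and FGFR3 (both 1.65), while KL and FGFR3 still overlapped.

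**Figure D3:**
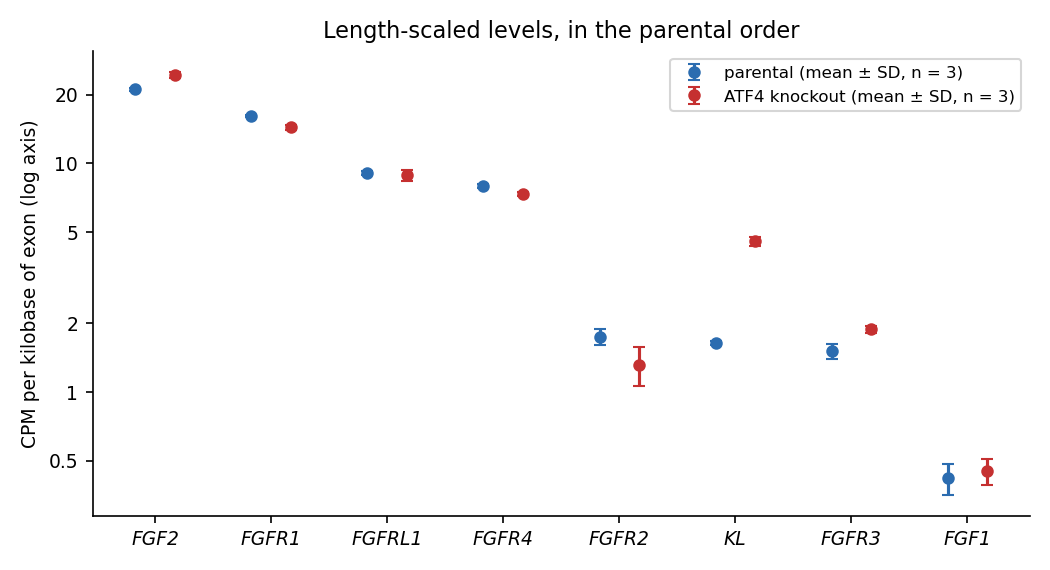
Mean CPM per kilobase of exon of 8 members in parental (blue) and ATF4 knockout cells (red), on a log axis, with the SD of 3 libraries; genes run in the parental order and KLB, near 0, is left out. By this length KL lies level with FGFR2 and FGFR3 in parental cells (1.64) and between FGFR4 and FGFR3 in knockout cells (4.56).

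The 4 receptor kinases together came to 27.1, 27.9 and 27.2 CPM per kilobase in parental cells and 24.6, 25 and 25.2 in knockout cells, which did not overlap. FGFR1 made up 59% ± 0.393 of this sum in parental and 57.6% ± 1.1 in knockout cells (SD, n = 3 each), with overlapping libraries. FGFR4 was next, at 29.1% ± 0.27 and 29.5% ± 0.932. FGFR3 went from 5.51% ± 0.351 to 7.57% ± 0.188 without overlap, and FGFR2 from 6.39% ± 0.512 to 5.3% ± 0.971 with overlap. By the longest transcripts the share of FGFR1 was 67.9% in parental and 67.1% in knockout cells, and that of FGFR3 3.11% and 4.32%.

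For each unit of FGFR1, its partner in FGF23 signalling, KL stood at 0.100, 0.101 and 0.103 per kilobase in parental libraries and at 0.335, 0.295 and 0.324 in knockout libraries. By the longest transcripts the ratio was 0.046 in parental and 0.144 in knockout cells. KL was below FGFR1 in all 6 libraries by either length. The FGF2 level per FGFR1 was 1.31 ± 0.0335 in parental and 1.7 ± 0.0801 in knockout cells by all exons, but 0.587 and 0.765 by the longest transcripts, so which of FGF2 and FGFR1 was higher depends on the length.

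RefSeq windows from 250 bases before each start to 50 after were found for 8 members, 16 windows in all, and none was found for FGFR1. They were searched on both strands for TGATGNAA, the core of the element bound by C/EBP and ATF4 dimers, and for TGACGTCA, the cyclic AMP response element. TGATGNAA occurs in 3.62% of the 35114 windows of all genes and TGACGTCA in 1.85%. Among the members, TGATGNAA was present in 1 window, belonging to 1 of the 5 starts of FGFR2 (chr10:121531265-121531564), and TGACGTCA in 0. The window of KL held neither, which says only that these letters are not in those 300 bases. CpGs were dense in the windows of KL (48), FGFR3 (51), FGF2 (41) and the most upstream start of FGFR2 (52), and sparse in the 4 windows of FGF1 (2 to 8).

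The genes whose profile over the 6 libraries was most like that of KL, by the root mean square difference of centred log2 CPM, were TEX9 (0.0921), ITGB2 (0.107), ASIC2 (0.125), DRAXIN (0.13) and RIMKLA (0.131). For FGFR1 they were PGLS (0.0115), MAP2K7 (0.0122) and INTS15 (0.0138). The log2 fold changes were 1.31 to 1.44 for the genes nearest KL and -0.18 to -0.16 for those nearest FGFR1. With replicates this close, such a likeness mostly picks genes of similar fold change, the value KL was chosen on. It does not show shared regulation.

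Around the members, 116 other genes of the FGF and klotho pathways were listed by role, of which 81 had enough reads to be tested. In the knockout 24 of these were higher and 26 lower, with 31 that did not pass, and the median log2 fold change was -0.01 against 0.01 over all genes. Of the tested genes of the list 29.6% passed as higher and 32.1% as lower, beside the 21.2% and 20.8% of all genes. The list was drawn up with earlier results of these data known, so these shares are descriptions. No set test was run, and all genes were not matched to the list in expression level. All adjusted p-values below are from edgeR's quasi-likelihood test over all 15321 genes.

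FGF23, FGF19 and FGF21, the endocrine ligands for which klotho proteins serve as co-receptors, were at 0 counts in all 6 libraries. Only 3 of the 20 other ligands were tested. FGF12 was higher (log2 fold change 0.43, adjusted p = 0.00304), and so was FGF11, with 3, 2 and 14 counts against 14, 15 and 35 (1.66, adjusted p = 0.00919). Both of these stay inside the cell. FGF5 differed by -0.14 and did not pass. FGF11 lost its call without parental replicate 1 (1.32), parental replicate 2 (1.23) or knockout replicate 3 (1.15), and was at 2.98 without parental replicate 3.

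Among klotho's own relatives and the proteases that shed it from the membrane, LCTL, a klotho-like protein, was higher from 26, 17 and 17 to 31, 51 and 43 counts (0.99, adjusted p = 0.0097). ADAM10, a shedding protease of klotho, was slightly higher (0.17, adjusted p = 2.86e-06), BACE1 slightly lower (-0.16, adjusted p = 0.00236), and ADAM17 did not pass (0.03). LCTL lost its call without knockout replicate 2 (0.85), and BACE1 with the regional median removed (-0.02).

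The carriers and co-receptors on the cell surface changed in both directions, with 3 of 13 tested higher and 5 lower. Glypican GPC1 was higher (0.56), as were the syndecans SDC3 (0.25) and SDC1 (0.12). GPC4 (-0.63), GPC6 (-0.21), SDC4 (-0.48), L1CAM (-0.34) and FLRT3 (-0.51), all of which can bind or modulate FGF receptors or their ligands, were lower. Of the 10 tested enzymes of heparan sulphate, 3 were higher and 3 lower. The extracellular sulphatases went in opposite directions, with SULF1 higher, from 6, 6 and 1 counts to 20, 33 and 38 (2.71, SE 0.473, adjusted p = 3.82e-06), and SULF2 lower from 218 ± 7.63 to 169 ± 4.87 CPM (-0.37, adjusted p = 2.38e-15). GLCE (0.34) and HS3ST1 (0.73) were higher, and EXT2 (-0.32) and NDST1 (-0.26), which build and sulphate the chain, were lower. With the regional median removed, the lower genes named here kept their calls. They were then at -0.11 (EXT2), -0.15 (L1CAM), -0.18 (SULF2), -0.25 (NDST1), -0.27 (GPC6), -0.33 (SDC4), -0.41 (FLRT3) and -0.44 (GPC4). The call was lost for GLCE without knockout replicate 3 (0.23), and for HS3ST1 without parental replicate 1 (0.45), knockout replicate 2 (0.67) or knockout replicate 3 (0.55). HS3ST1 also lost its call with DESeq2 (0.73), with limma-voom (0.77), without the low-count filter (0.74) and with the regional median removed (0.67).

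Inside the cell, 6 of 24 adaptors and cascade kinases were higher and 10 lower. MAP2K1 (0.27), SHC1 (0.19) and GRB2 (0.18) were among the higher, GAB2 (-0.32) and PLCG1 (-0.23) among the lower. With the regional median removed, GRB2 (0.04) no longer passed. MAP2K1 (0.20), SHC1 (0.09), GAB2 (-0.16) and PLCG1 (-0.09) were then smaller but kept their calls. Beside 21.2% of all genes higher and 20.8% lower, the feedback inhibitors had 6 of 9 that did not pass, 0 lower and 3 higher. They were SPRY1, which rose from 1.87 ± 0.448 to 3.38 ± 0.619 CPM (0.85, adjusted p = 5.09e-05), the phosphatase DUSP6 (0.59, adjusted p = 0.0313) and SPRED3 (0.34, adjusted p = 0.033). SPRY1 kept its call under every alternative run, whereas DUSP6 lost it without parental replicate 2 (0.51) or any 1 knockout library (0.58 to 0.59), and SPRED3 without parental replicate 1 or 2 or knockout replicate 1 or 2 (0.30 to 0.33). Both also lost it with DESeq2 and without the low-count filter (0.59 and 0.34). Of the 6 genes listed as transcriptional targets of the cascade, 5 were lower and 0 higher. The feedback inhibitors were listed apart from them, so any contrast of these roles depends on how the list was split. CCND1, cyclin D1, fell from 145 ± 6.92 to 67.7 ± 1.99 CPM (-1.10, adjusted p = 2.28e-32), and ETV1 (-0.81, adjusted p = 2.02e-06), EGR1 (-0.41), ETV5 (-0.30) and MYC (-0.08) were also lower, whereas ETV4 differed by 0.30 and did not pass. MYC lost its call without parental replicate 1 or 2 or knockout replicate 1 or 2 (-0.08 to -0.07), and with scaling by total counts (-0.05), and the other 4 kept theirs.

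Of the 20 genes listed for phosphate, calcium and vitamin D handling, on which klotho and FGF23 act in the kidney, 12 were tested. The list also held SLC12A3, which carries sodium chloride, and the kinase SGK1. SLC12A3 was lower, from 11.8 ± 1.05 to 4.32 ± 0.434 CPM (-1.45, adjusted p = 9.11e-18), as was SLC34A1, the proximal sodium phosphate cotransporter (-0.61, adjusted p = 0.0159). The 5 that were higher moved by little: SLC20A1 (0.19), NHERF1 (0.19), SLC20A2 (0.15), FAM20C (0.14) and SGK1 (0.11). The call of SLC34A1 was lost without parental replicate 2 (-0.54), knockout replicate 1 (-0.53) or knockout replicate 2 (-0.47), and that of SGK1 without any 1 library other than parental replicate 3 (0.08 to 0.12), and also with DESeq2 and under either other filter (0.11 to 0.12). NHERF1 lost its call with the regional median removed (0.05). TRPV5, CALB1, GALNT3, CYP24A1 and CYP27B1 were among the 8 with too few reads, at most 13 counts in a library.

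**Figure D4:**
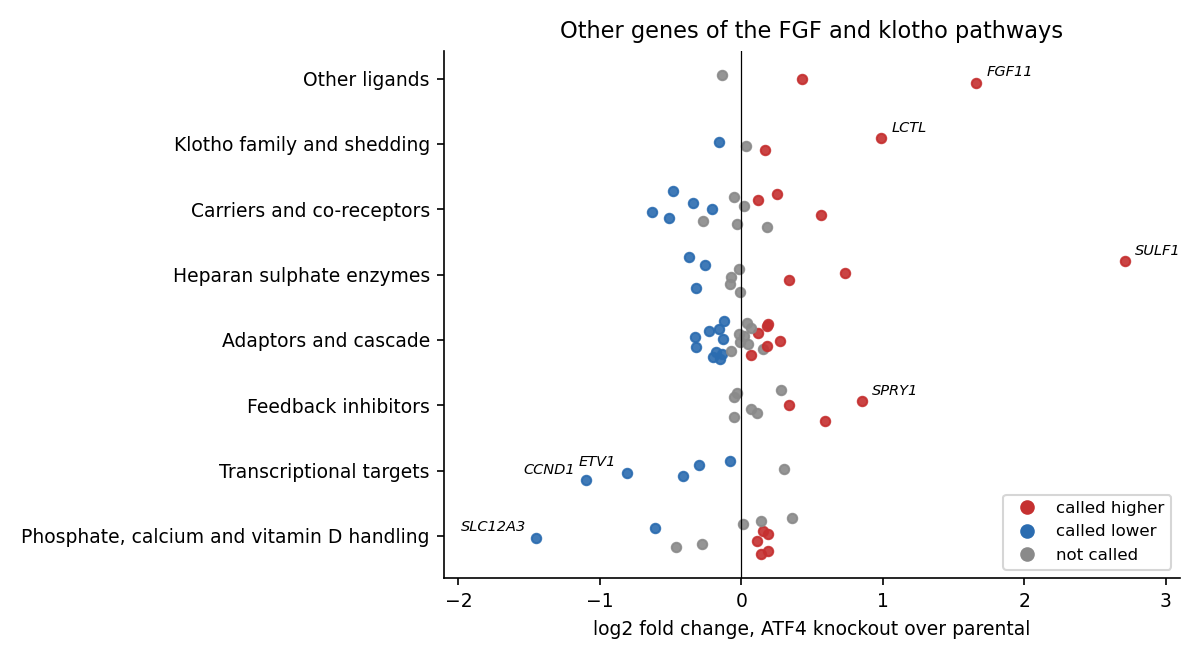
Log2 fold change, knockout over parental (horizontal axis), of the 81 tested genes of the FGF and klotho pathways by role, 1 point per gene, in red where called higher, blue where called lower and grey where not called at an adjusted p of 0.05. The listed transcriptional targets lie mostly to the left, led by CCND1 (-1.10). Of 9 tested feedback inhibitors, 3 are called higher, 0 lower and 6 not called, and DUSP6 and SPRED3 lose their call under some alternatives.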

How the data were processed

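The submitters' processing notes list GRCh38 as genome build and bcl2fastq 2.20, cutadapt, STAR and HTSeq as tools. For further versions, the annotation release and the strand setting the sources used here give nothing, so reads of antisense partners may be mixed. The deposited values were raw read counts per gene, 1 column for each of 6 libraries, with 41002611 to 46755358 counts each.

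Members and gene lists were chosen with earlier results of these data known. Genes passing filterByExpr (15321) were scaled by TMM and tested with the edgeR 4.0.16 quasi-likelihood test (R 4.3.3), Benjamini-Hochberg threshold 0.05, knockout against parental. The script was tested on simulated data. Gene coordinates and exon lengths came from GENCODE 29. Named genes were the members, ATF4, up to 3 called pathway genes with the smallest p per direction and role, all genes behind counts of 5 or fewer that passed, and the profiles nearest KL and FGFR1; 1 gene under this rule is not reported here. Same-numbered libraries did not deviate together (r -0.028, 0.006 and -0.016), and the main fit used no pairing. Such values cannot show whether the numbers pair samples, which the labels leave unsaid. Alternatives were other filters, scaling by total counts, DESeq2 1.42.0, limma-voom (limma 3.58.1), a replicate block, leaving out each library, and removing the median of the 100 nearest genes.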

Additional observations from a re-analysis of the deposited data

How the results depend on the processing

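The 8 tested members kept their direction under the filters, scaling by total counts, DESeq2, limma-voom and the replicate block. KL ran from 1.45 to 1.51 when single libraries were left out, and stayed at 1.48 with the replicate block, under which 6405 genes were called in place of 6428. With the regional median removed the log2 fold changes were 1.42 for KL, -0.22 for FGFR1, -0.12 for FGFRL1 and 0.12 for FGF2. FGFR4 no longer passed without the low-count filter, with scaling by total counts, or without parental replicate 2 or 3 or knockout replicate 2 or 3. When single libraries were left out FGF1 ran from 0.00 to 0.22 and FGFRL1 from -0.06 to 0.00, so neither had a clear direction. With longest transcripts, 4 members in parental and 6 in knockout cells changed place in the order of mean levels. Of the 40 named pathway genes 27 kept their call under all alternatives that tested them, 13 lost it under at least 1 and 0 reversed. SULF1, FGF11, LCTL and HS3ST1 were dropped by the stricter filter (at least 1 CPM in 3 libraries) and were not tested under it. BACE1, GRB2, NHERF1 and HS3ST1 were among those that lost their call with the regional median removed. The causes were not tested. KLB, FGF11 and SULF1 are limited by depth.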
